A study of Mus musculus with 6 samples.

Results

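The 10 genes described here encode the glucose transporter Slc2a1 and 9 enzymes of glycolysis, namely Hk1, Aldoa, Tpi1, Gapdh, Pgk1, Pgam1, Eno1, Pkm and Ldha. They were taken by Ensembl gene identifier (ID) from the 54446 gene IDs of each count table, and all 10 were among the 15615 genes that passed the filter on low counts. The data come from RNA immunoprecipitation sequencing (RIP-seq), in which an antibody to YTHDF2 pulls down the protein together with its RNA. The 3 immunoprecipitation (IP) libraries and the 3 Input libraries, numbered 1 to 3 in each group, were made from wild-type regulatory T (Treg) cells sorted from subcutaneous tumours of B16F10, a mouse melanoma line. The sort took live CD45+ CD4+ cells that were positive for the Foxp3-GFP reporter, in which the Foxp3 gene marks Treg cells with green fluorescence. The Input was 10% of a lysate, and the IP was the remainder after 4 hours with anti-YTHDF2 on beads and 6 washes. The genotype label is WT in both groups, and no age, number of animals or pooling is given in the labels. The spread behind each p-value is thus that of these libraries and may be technical. No IP with a nonspecific antibody or from YTHDF2-deficient cells was used here, so enriched and depleted refer to level in the IP relative to the Input.

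Glycolysis splits glucose into pyruvate in the cytosol and yields ATP and NADH. Slc2a1 brings glucose into the cell, hexokinase traps it as a phosphate, aldolase splits the phosphorylated sugar, and the enzymes from Gapdh to Pkm harvest energy from the fragments. Ldha then reduces pyruvate to lactate, which regenerates the NAD that Gapdh consumes. Activated T cells use this route heavily, while Treg cells also rely on oxidation of fatty acids and lactate. YTHDF2 is a cytoplasmic reader of N6-methyladenosine (m6A) that recruits deadenylation and decay machinery to the mRNAs it binds.

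Transcription of many of these genes is raised by the hypoxia-inducible factor HIF-1, whose response element has the core ACGTG. The 250 bases before the RefSeq start of 3 members (build GRCm38.p6, the first start listed for each) are shown because they hold this core. They belong to an enzyme early in the energy-yielding part, to the lactate-forming enzyme and to the transporter. They are printed from 5′ to 3′ on the gene's strand, with ACGTG and its reverse complement CACGT in capitals.
Pgk1, chrX:106186850-106187099, plus strand: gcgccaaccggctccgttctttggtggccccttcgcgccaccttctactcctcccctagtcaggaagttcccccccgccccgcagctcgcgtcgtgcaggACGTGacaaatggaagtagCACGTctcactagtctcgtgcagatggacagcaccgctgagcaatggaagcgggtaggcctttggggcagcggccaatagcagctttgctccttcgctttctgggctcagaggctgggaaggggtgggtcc
Ldha, chr7:46845554-46845803, plus strand: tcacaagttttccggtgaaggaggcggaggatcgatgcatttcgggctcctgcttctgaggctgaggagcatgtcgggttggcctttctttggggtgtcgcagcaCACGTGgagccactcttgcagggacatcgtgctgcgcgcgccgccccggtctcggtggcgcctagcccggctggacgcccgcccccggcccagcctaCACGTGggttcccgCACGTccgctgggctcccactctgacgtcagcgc
Slc2a1, chr4:119108495-119108744, plus strand: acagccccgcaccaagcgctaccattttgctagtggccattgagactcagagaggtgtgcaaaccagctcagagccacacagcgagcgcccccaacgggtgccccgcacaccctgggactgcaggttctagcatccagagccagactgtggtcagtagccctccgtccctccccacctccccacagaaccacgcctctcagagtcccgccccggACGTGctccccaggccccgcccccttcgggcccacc
The core occurred at 2 separate places in the Pgk1 stretch, at 3 in that of Ldha and at 1 in that of Slc2a1. Matches to ACGTG and CACGT overlap in CACGTG, which was counted as 1 place. The core was found in the first-listed stretch of 4 of the 10 members, the fourth being Pgam1. It was found in that of 16.6% of the 27025 genes with a listed RefSeq start. Counting every listed start, Pkm and Aldoa held it too, which gives 6 of 10 members and 18.5% of the genes. These 2 shares are not like for like, since a gene with more listed starts has more stretches that can hold the core. Aldoa has 3 listed starts and Pkm 2, while Slc2a1 has 1. The matches of Aldoa lie in overlapping stretches and are the same bases. A match is a run of letters and does not show that the factor binds there, and the stretches were read before the start site, whereas a RIP experiment recovers RNA.

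Most of these mRNAs took a smaller part of the IP than of the Input. Of the 10 members, 6 were depleted in the IP (Aldoa, Pgk1, Ldha, Eno1, Pkm and Tpi1), by 2.45-fold to 5.77-fold, and 0 were enriched. Pgam1 was lower in every IP library without passing the test, and Slc2a1, Hk1 and Gapdh overlapped between the groups. A gene was called when its adjusted p in edgeR's quasi-likelihood test, with Benjamini-Hochberg adjustment over all tested genes, was under 0.05. DESeq2 and limma voom also called 0 members enriched, and without adjustment for multiple tests edgeR gave 0 as well. By this rule 6.11% of all tested genes were depleted and 4.33% enriched. Calls were more common among the 2151 abundant genes, meaning tested genes whose mean over the 6 libraries was 100 CPM or more (gene counts scaled to the size of the library), of which 18.9% were depleted and 20.8% enriched. Of the 6 members at this level, 5 were depleted. The median log2 fold change (IP over Input) was -1.48 for the 10 members, -0.12 for all tested genes and 0.18 for the abundant genes.

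**Figure D1:**
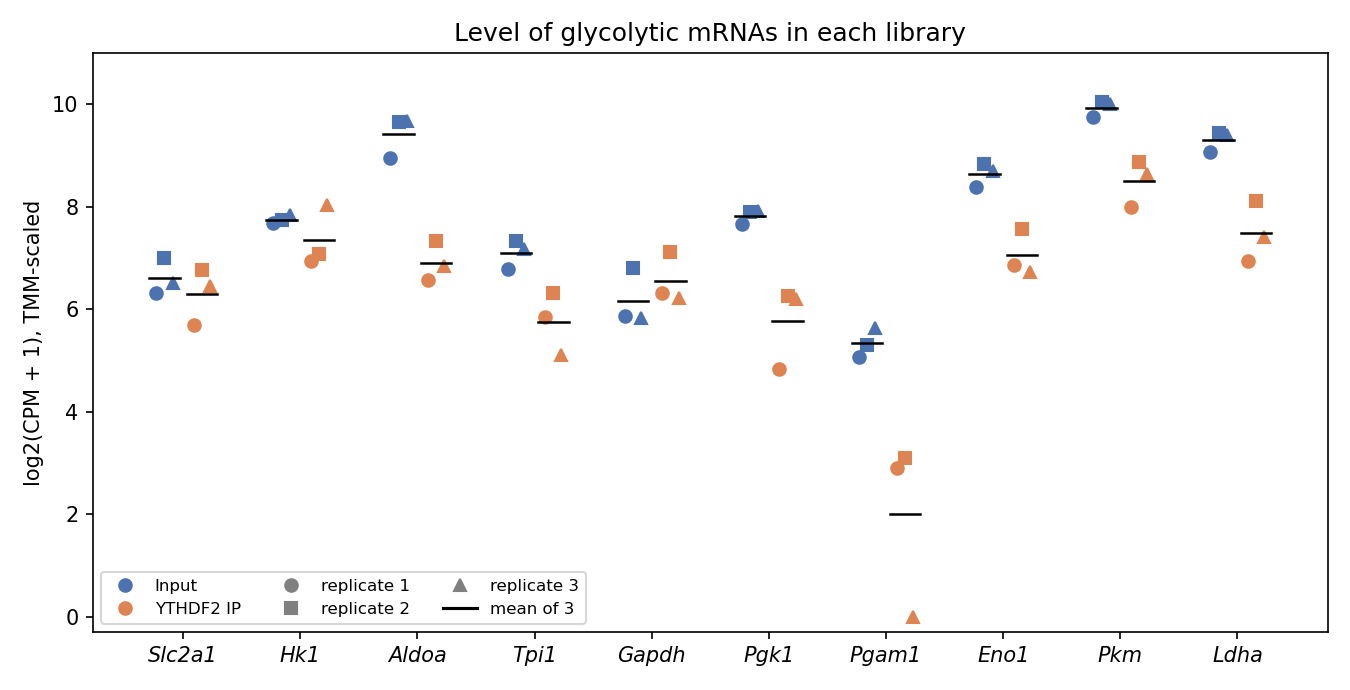
Level of each gene as log2(CPM + 1), scaled by the trimmed mean of M-values (TMM), in each Input (blue) and YTHDF2 IP (orange) library, with the marker giving the replicate number and a bar for the mean of 3 libraries. Genes run in the order of the pathway, and the orange points lie below all blue points for 7 of the 10 genes, while those of Slc2a1, Hk1 and Gapdh overlap with the blue ones.

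Reads assigned to genes numbered between 6847731 and 8465453 per IP library and between 10029733 and 14704617 per Input library. Reads without a unique alignment, which the files keep apart from the gene counts, made up 2.88% to 3.35% of an IP library and 9.18% to 9.65% of an Input library. This category bears on genes with processed pseudogenes, intronless copies of an mRNA in the genome, since reads that fit gene and copy equally can be lost from both or split. The RefSeq table names pseudogenes after 5 of the members: 3 each for Gapdh, Pgk1, Ldha and Aldoa and 2 for Pgam1. It also names 2 protein-coding retrocopies of Aldoa, Aldoart1 and Aldoart2. Their IDs could not be matched to the gene counts here, so the counts of these 5 members are uncertain. Only copies named after a member were sought, so copies under other names may exist for any member. The counts of the other members may thus be affected too, and the part of read sharing was not tested for any member. No transcript lengths were at hand, so levels are compared between libraries for 1 gene and not between genes.

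Slc2a1, also called GLUT1, is the transporter that carries glucose across the plasma membrane (ENSMUSG00000028645.11, chr4:119108745-119137330, plus strand). Its level was 78.1, 128 and 90.4 CPM in Input libraries 1, 2 and 3 and 50.5, 108 and 86.1 CPM in IP libraries 1, 2 and 3. The groups overlapped, as IP library 2 lay above Input libraries 1 and 3. The estimated log2 fold change was -0.27 ± 0.32 (SE; adjusted p = 0.714 in edgeR's test). Its 95% interval, from -0.996 to 0.45, does not show that the level was the same in both groups.

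Hk1, hexokinase 1, adds the phosphate that keeps glucose in the cell (ENSMUSG00000037012.18, chr10:62268855-62379920, minus strand). It had 203, 212 and 228 CPM in the Input, the narrowest spread of any member there, with a coefficient of variation of 5.84%. In the IP it had 123, 134 and 260.0 CPM, so that IP libraries 1 and 2 lay below all Input libraries and IP library 3 above them. With all libraries the log2 fold change was -0.32 ± 0.28 (SE; 95% interval -0.94 to 0.31; adjusted p = 0.595 in edgeR's test). Without IP library 3, Hk1 was called depleted at -0.78 (adjusted p = 0.0133 by edgeR). IP library 3 listed the fewest gene IDs with a read, 14200 against 18501 and 19991 in the other IP libraries.

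Aldoa, aldolase A, cleaves fructose bisphosphate (ENSMUSG00000030695.16, chr7:126795234-126800994, minus strand). It had 493, 810 and 810 CPM in the Input and 93.6, 159 and 114 CPM in the IP. Every IP library lay far below the lowest Input library, and the IP libraries reached 13.3% to 22.6% of the Input mean. The log2 fold change of -2.53 ± 0.26 (SE), a 5.77-fold drop (adjusted p = 0.000371 in edgeR's test), was the largest among the called members. Its call held in all 16 alternatives, with values from -3.05 to -2.33.

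Tpi1, triosephosphate isomerase, interconverts the fragments that aldolase releases (ENSMUSG00000023456.15, chr6:124810586-124814158, minus strand). Its level was 109, 160.4 and 144 CPM in the Input and 56.8, 78.1 and 33.5 CPM in the IP. The groups did not overlap, and the highest IP library reached 56.7% of the Input mean. At -1.30 ± 0.32 (SE; adjusted p = 0.0328 in edgeR's test), its log2 fold change was the smallest drop among the called members. Of 16 alternatives, 5 lost this call, and the adjusted p ran from 9.00e-05 to 0.115. In edgeR's test it was lost without IP library 1 (-1.35, adjusted p = 0.103), without Input library 2 (-1.26, adjusted p = 0.0839) and without Input library 3 (-1.36, adjusted p = 0.0810). It was also lost with upper quartile factors (-1.10, adjusted p = 0.0534) and against a 1.5-fold change (adjusted p = 0.115).

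Gapdh, which oxidises glyceraldehyde phosphate and passes electrons to NAD, had no called change (ENSMUSG00000057666.18, chr6:125161852-125166467, minus strand). It had 57.0, 110 and 56.1 CPM in the Input and 78.3, 137 and 73.9 CPM in the IP. The highest library of each group was number 2, and the groups overlapped. Its log2 fold change of 0.37 ± 0.36 (SE; 95% interval -0.43 to 1.17; adjusted p = 0.637 in edgeR's test) was the only positive one among the 10 members. Its sign was turned by library sizes from all reads, at -0.15, and by leaving out IP library 2, at -0.0037. The 791, 1047 and 648 reads of Gapdh in the Input are those left after reads without a unique alignment were set apart. RefSeq lists Gapdh-ps14, Gapdh-ps15 and Gapdh-ps16 among its pseudogenes.

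Pgk1, phosphoglycerate kinase 1, forms the first ATP of the pathway (ENSMUSG00000062070.12, chrX:106187100-106203699, plus strand, the start region shown above). It had 203, 236 and 239 CPM in the Input and 27.6, 75.5 and 72.1 CPM in the IP. No IP library reached the lowest Input library, and IP library 1 was the lowest, at 12.2% of the Input mean. The 3.87-fold drop, a log2 fold change of -1.95 ± 0.35 (SE; adjusted p = 0.00724 in edgeR's test), was called in all 16 alternatives.

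Pgam1, phosphoglycerate mutase 1, shifts the phosphate group on phosphoglycerate (ENSMUSG00000011752.6, chr19:41911871-41918665, plus strand). It had 451, 365 and 561 reads in the Input and 55, 52 and 0 reads in the IP. These correspond to 32.5, 38.5 and 48.6 CPM in the Input and to 6.44 and 7.55 CPM in IP libraries 1 and 2. The 0 reads of IP library 3 allow a level of up to 0.356 CPM, taking 3 reads as the limit for counting error only. All IP libraries lay below all Input libraries, but they disagreed among themselves, with a coefficient of variation of 87.4%. The log2 fold change of -3.10 had a wide error of ± 1.14 (SE; adjusted p = 0.123 in edgeR's test). Pgam1 was called in 4 of the 15 alternatives that tested it, one of which left out IP library 3 (-2.54, adjusted p = 0.00244 in edgeR's test).

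Eno1, enolase 1, removes water to form phosphoenolpyruvate (ENSMUSG00000063524.13, chr4:150236708-150248879, plus strand). It had 334, 454 and 415 CPM in the Input and 115, 188 and 105 CPM in the IP. The groups were clearly apart, with the IP at 26.3% to 47.0% of the Input mean. This is a drop of 2.94-fold, or -1.56 ± 0.25 (SE) as a log2 fold change (adjusted p = 0.00396 in edgeR's test).

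Pkm encodes the pyruvate kinase whose spliced forms M1 and M2 make pyruvate and ATP (ENSMUSG00000032294.17, chr9:59656576-59679372, plus strand). Counts per gene do not separate the spliced forms. Pkm had 866, 1055 and 1023 CPM in the Input and 254, 468 and 398 CPM in the IP. All IP libraries lay below all Input libraries, at 25.9% to 47.7% of the Input mean. Pkm fell 2.63-fold, with a log2 fold change of -1.39 ± 0.22 (SE; adjusted p = 0.00371 in edgeR's test).

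Ldha, lactate dehydrogenase A, turns pyruvate into lactate at the end of the route (ENSMUSG00000063229.15, chr7:46842274-46855627, plus strand). The start region shown above lies inside this span, because the annotated gene begins farther upstream. Ldha had 534, 690.0 and 679 CPM in the Input and 122, 277 and 169 CPM in the IP. The highest IP library stood at 43.7% of the Input mean, and the groups did not overlap. Ldha fell 3.34-fold, with a log2 fold change of -1.74 ± 0.28 (SE; adjusted p = 0.00421 in edgeR's test). Pkm, Ldha and Eno1 were each called depleted in all 16 alternatives.

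**Figure D2:**
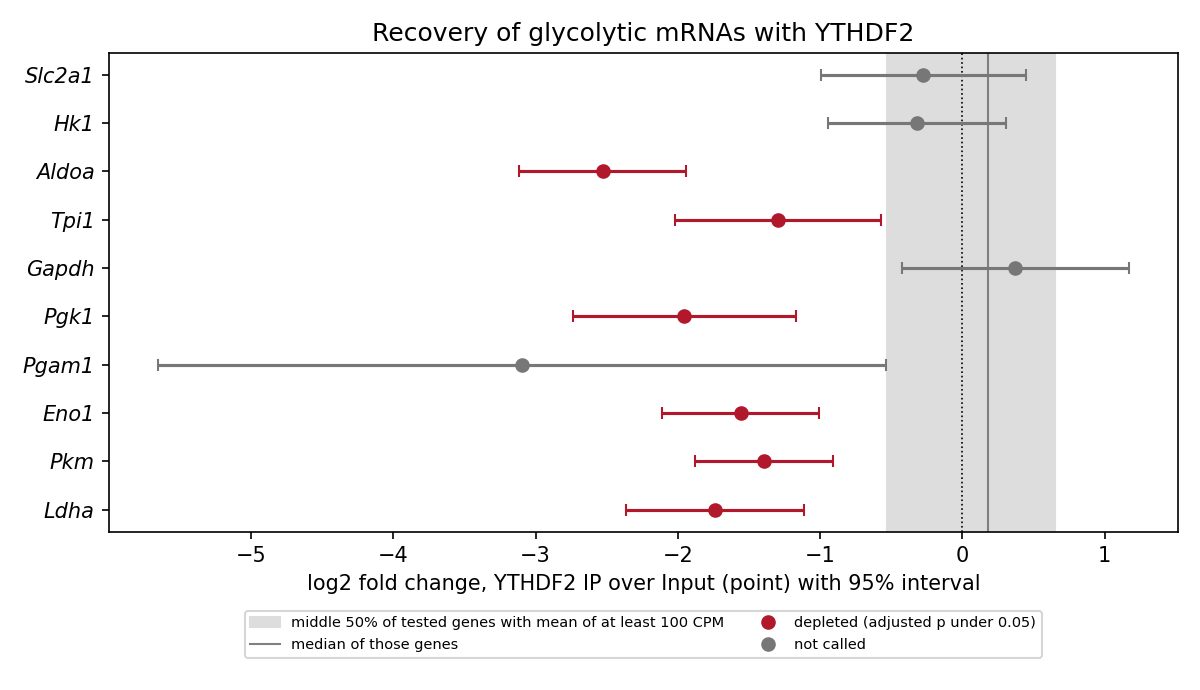
Log2 fold change of YTHDF2 IP over Input for each gene (point) with its 95% interval from edgeR's quasi-likelihood fit, in the order of the pathway, with called genes in red and others in grey. The grey band spans the middle 50% of abundant genes (100 CPM or more on average), -0.53 to 0.65. The whole intervals of the 6 red genes lie to its left, as does that of Pgam1, a grey gene, which ends at -0.539. Those of Slc2a1, Hk1 and Gapdh reach into it.

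Separation of the groups, without a test, was seen for 7 of the 10 members, each with the IP libraries all below the Input libraries. This holds for 23.7% of all tested genes and for 27.9% of the abundant genes. The IP libraries all lay above the Input libraries for 0 members, against 12.8% of all tested genes and 35.4% of the abundant genes. Among all tested genes, the log2 fold changes of Aldoa and Pgk1 stood at percentiles 8.54 and 12.7. Those of Slc2a1 and Hk1 stood at percentiles 45.1 and 43.9, and that of Gapdh at 66.4. Among the abundant genes these values stood at percentiles 5.49 for Aldoa, 7.67 for Pgk1, 31.4 for Slc2a1, 30.2 for Hk1 and 59.1 for Gapdh.

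As a share of gene-assigned reads, the 10 genes together took 0.274%, 0.368% and 0.357% in the Input and 0.0936%, 0.164% and 0.142% in the IP. The mean share (± SD of 3 libraries) was 0.333% ± 0.0512 for the Input and 0.133% ± 0.0362 for the IP, and the groups did not overlap. How these reads divide among the 10 genes does not depend on the scaling between libraries, and the shares that follow are means ± SD with n = 3. Aldoa took 19.8% ± 2.52 of the reads of the 10 genes in the Input and 9.49% ± 0.745 in the IP, lower in every IP library. Pkm took 28.1% ± 1.47 in the Input and 28.8% ± 1.48 in the IP, and the groups overlapped. Slc2a1 had 2.80% ± 0.439 in the Input and 6.21% ± 0.671 in the IP, with all IP libraries above all Input libraries. Gapdh had 2.1% ± 0.678 in the Input and 7.49% ± 1.61 in the IP, again without overlap. The share of Hk1 was 5.44% to 6.99% in the Input and 8.19% to 19.8% in the IP, so it too lay higher in every IP library. In a fixed sum, a gene that drops less than the others takes a larger share, so these 3 shares are relative to the other members. The shares of Pgk1, Ldha and Pgam1, like that of Aldoa, were lower in every IP library, and those of Eno1 and Tpi1 overlapped between the groups. Against the geometric mean of the other 9 members, with 0.5 added to each count, Pgk1 and Ldha overlapped instead. On that log2 scale Pgk1 stood at -1.40 to 0.48 in the IP and at -0.12 to 0.14 in the Input, and Ldha at 0.98 to 1.85 and at 1.59 to 1.72. The highest value of each came from IP library 3, where Pgam1, part of that mean, had 0 reads. Gapdh, Hk1 and Slc2a1 were again higher, and Aldoa and Pgam1 lower, in every IP library. Differences in fold change between members were not tested.

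**Figure D3:**
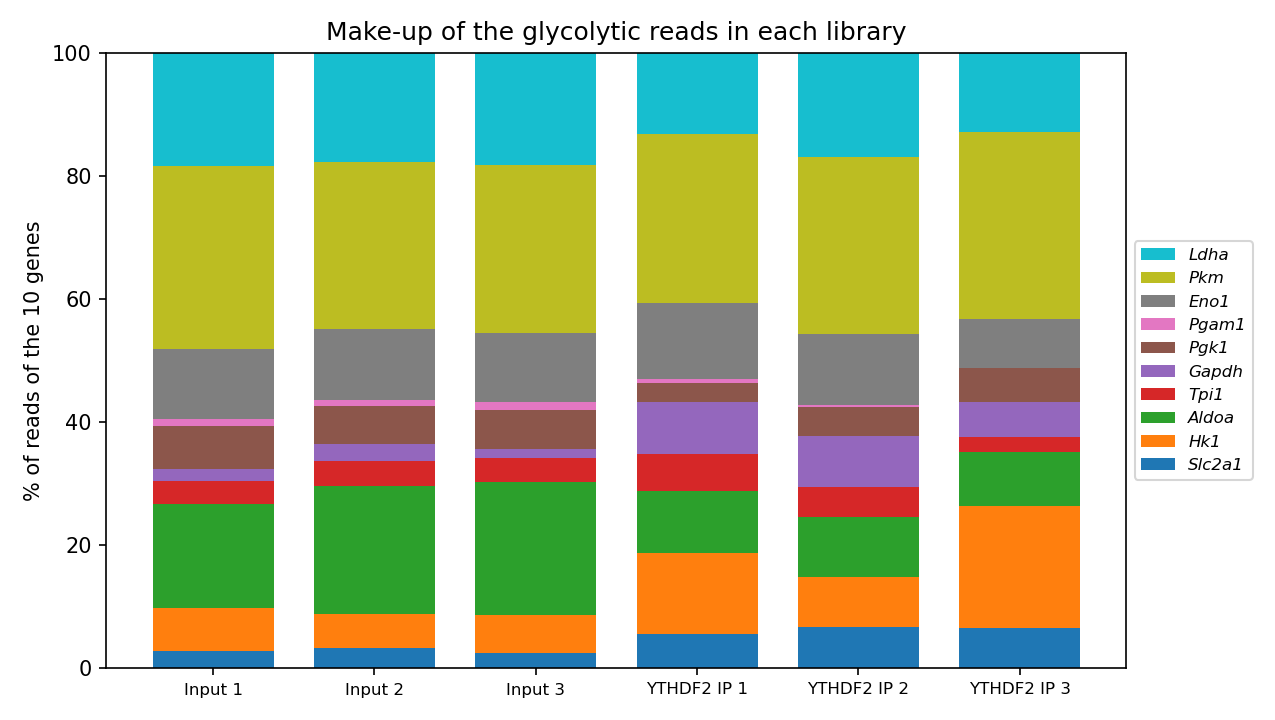
Reads of each gene as a percentage of the reads of all 10 genes in each of the 6 libraries, stacked in the order of the pathway from Slc2a1 at the bottom to Ldha at the top. Pkm keeps a share of 27.1% to 30.3% in all libraries, whereas Aldoa takes 17.0% to 21.7% in the Input and 8.66% to 10.1% in the IP.

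Input library 1 was the lowest Input library for 9 of the 10 members and for 35.4% of the 2151 abundant genes. IP library 2 was the highest IP library for 9 of the 10 members and for 40.5% of the abundant genes, the exception being Hk1. At the other ends the members were split: IP library 1 was the lowest for 6 of them and IP library 3 for 4, and Input library 2 was the highest for 6 and Input library 3 for 4. The IP libraries spread more: the median coefficient of variation of the members was 17.3% in the Input and 38.1% in the IP. For the abundant genes these medians were 10.4% and 20.3%.

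Over the 6 libraries, the log2 CPM of Eno1 followed the mean profile of the other 9 members with r = 0.999, and Ldha, Aldoa, Tpi1 and Pkm with r = 0.976, 0.966, 0.964 and 0.942. Pgk1 and Pgam1 followed it with r = 0.88 and 0.72, and Slc2a1, Hk1 and Gapdh with r = 0.55, 0.28 and -0.15. These values are descriptions over libraries that fall into 2 groups, so they mainly express the difference between IP and Input. Pgam1, with 0 reads in IP library 3, enters the mean profile of every other member and that of all 10. Its part in these values was not tested. Of the 2145 other abundant genes, 148 followed the mean profile of the 10 members with r of at least 0.95. The closest were ENSMUSG00000024425.3, with a log2 fold change of -1.52, and ENSMUSG00000041481.16, with a log2 fold change of -2.27. The files do not pair IDs with names, so these remain unnamed.

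Other processing choices left most of the members' calls in place. Over the 16 alternatives, 5 to 8 members were depleted and 0 were enriched in each. Of all tested genes, the share depleted ran from 3.26% (without Input library 3) to 12.5% (library sizes from all reads). The share enriched ran from 1.02% (library sizes from all reads) to 11.5% (at least 1 CPM in all libraries). The 8 depleted members came without IP library 3, where 8.73% of tested genes were depleted. Library sizes from all reads gave the lowest log2 fold change for 9 of the 10 members, and moved the median of all tested genes by -0.53. With that scaling all 10 members lay below 0, Slc2a1 at -0.79 and Hk1 at -0.83, but neither passed the test. The size of every member's fold change is therefore relative to the scaling, as for Aldoa, at -2.53 with TMM and -3.05 with library sizes from all reads. The direction of Gapdh depends on the scaling too, and it also turned without IP library 2, at -0.0037.

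**Figure D4:**
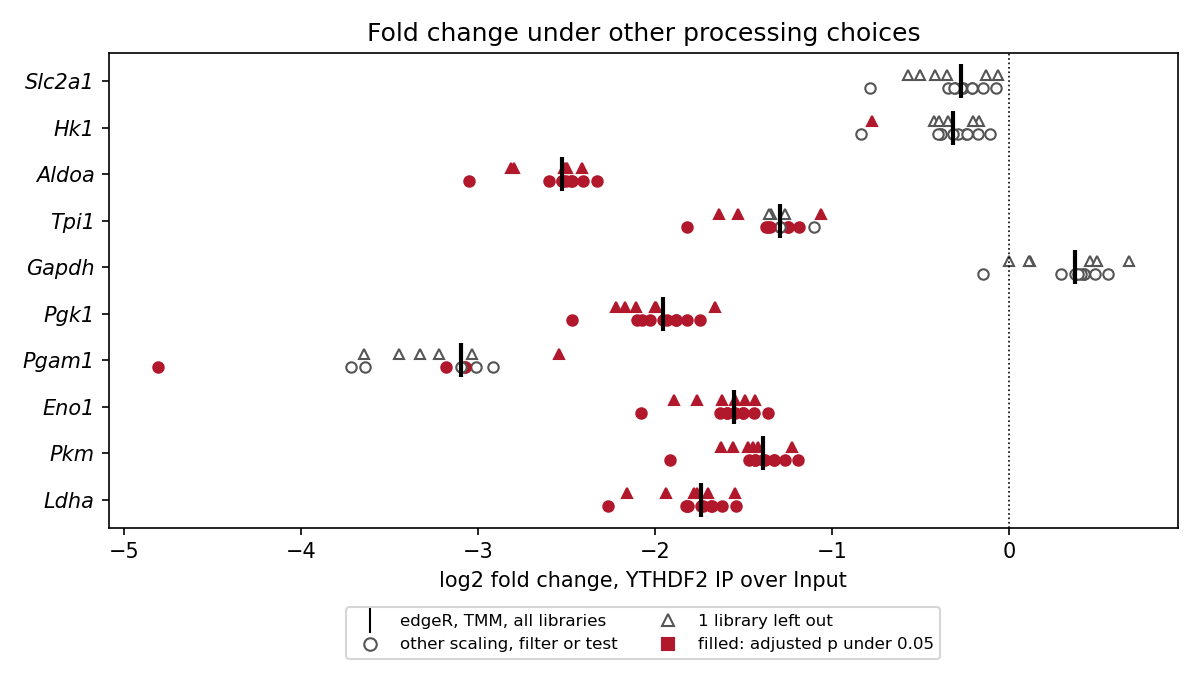
Log2 fold change of YTHDF2 IP over Input for each gene in the main setting (black bar), under other scalings, filters or tests (circles) and with 1 library left out (triangles), filled red where the adjusted p was under 0.05. Pgk1, Pkm, Ldha, Aldoa and Eno1 are filled throughout, and Slc2a1 and Gapdh nowhere.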

How the data were processed

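Per the submitters' processing notes, Trimmomatic 0.39, HISAT2 2.1.0, HTSeq and DESeq2 were used with build mm10; roles, annotation release and strand setting were not stated there. The deposited values are raw counts of reads per gene. Spike-in IDs (92) and the 5 HTSeq summary categories were set aside; reads in no feature were 49.6% to 51.6% of Input and 71.2% to 72.1% of IP reads.

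The counts were fitted here with edgeR 4.0.16 in R 4.3.3 (filterByExpr, TMM, robust quasi-likelihood F-test, group as the only term, two-sided), which was also tested on simulated data. Standard errors and intervals come from the F statistics. Replicate libraries differed beyond sampling noise (chi-square per degree of freedom of at least 17.7). Alternatives were other scalings and filters, DESeq2 1.42.0, limma 3.58.1 (voom), a test against 1.5-fold, a replicate block and leaving out each library. The members and lists were chosen with earlier results of these data known. All 10 members are named, with the genes most like them in profile. Member names came with the list of IDs; RefSeq positions were matched by symbol for all 10. As 0 of 49997 RefSeq rows hold an Ensembl ID, other pathway genes, pseudogenes and cell type markers were not matched, so the Treg label was not checked. Floors cover counting error only.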

Additional observations from a re-analysis of the deposited data

Results flagged for a closer look

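Reads in no annotated feature lie outside the gene counts and took a higher share in every IP library than in any Input library. Their mean share was 71.7% for IP libraries, against 50.4% for Input libraries.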

How the results depend on the processing

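The 5 calls for Aldoa, Pgk1, Ldha, Eno1 and Pkm held in all 16 alternatives. The number of depleted members ran from 5 to 8 of the 10, beside 3.26% to 12.5% of all tested genes. Gapdh reversed to -0.15 with library sizes from all reads and to -0.0037 without IP replicate 2; leaving out other libraries gave up to 0.68. Over all tested genes, 954 (6.11%) were depleted in the main setting. With library sizes from all reads 1958 (12.5%) were depleted, with limma voom 1737 (11.1%) and against a 1.5-fold change 591 (3.78%). DESeq2 called 2085 depleted, or 10.0% of the 20847 genes it tested. The 676 enriched genes became 1081 with upper quartile factors, 160 with library sizes from all reads, 1030 with at least 1 CPM in all libraries, 1382 with DESeq2 and 205 against a 1.5-fold change. A test against 1.5-fold requires a larger change by construction; for the other shifts the cause was not tested. With 1 library left out there were 563 to 1661 depleted genes (3.26% to 8.73% of those tested) and 188 to 999 enriched genes (1.09% to 5.25%). The number of tested genes differed between these fits. Enriched genes were 41.5% of calls with TMM, 57.4% with upper quartile factors and 7.55% with library sizes from all reads. A replicate block gave 6 depleted members and changed no member's call. With it the adjusted p of edgeR's test was lower for each depleted member, as for Aldoa (1.26e-08), Ldha (1.51e-06) and Tpi1 (0.00357), and higher for Pgam1 (0.267). Deviations of same-numbered libraries correlated at 0.0999, 0.026 and 0.024, under the limit of 0.1 used here, so the main fit did not take the numbers as pairs. Yet every library's highest correlation was with its own number. The labels do not say whether same-numbered libraries share a lysate, so the main fit may ignore a pairing. The alternatives that need gene names (the pathway list and pseudogene reads added to a member) were not run. With at least 1 CPM in all libraries, Pgam1 was not tested.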
